A study of Mus musculus with 5 samples.

Results

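Delta cells, the somatostatin-secreting endocrine cells of the pancreatic islet, were followed across genotype and diet in single-cell libraries from mouse islets. Their members were the cells annotated as delta in the deposited tables, which were 1805 of 18221 cells, or 9.91%. All 1805 lay in cluster 4, and 0 cells of that cluster had another label. The name rests on the deposited annotation alone. It was not checked against Sst, the gene for somatostatin, because transcript levels were not analysed here.

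Somatostatin from delta cells acts on neighbouring islet cells through its receptors and restrains the release of both insulin and glucagon. Delta cells reach alpha and beta cells through short processes, so their local action depends on which cells lie near them in the islet. Beta cells secrete insulin, alpha cells secrete glucagon, and PP cells secrete pancreatic polypeptide. Delta cells are a minority in rodent islets, where beta cells prevail.

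The mice carried floxed alleles of Atf6a, the gene for ATF6α, a transcription factor that senses protein folding stress in the endoplasmic reticulum. Controls (Atf6a fl/fl) had the floxed alleles only. Knockouts (RIP-Cre;Atf6a fl/fl, here cKO) also had RIP-Cre, a recombinase under a rat insulin promoter, which aims the deletion at beta cells, so delta cells are not its intended target. None of the groups analysed carried RIP-Cre without the floxed alleles. From 6 weeks of age the mice ate feed with either 10 kcal% fat (normal diet) or 60 kcal% fat (high-fat), and their islets were isolated at 22 weeks. Every library pooled the islets of 2 mice. The control normal-diet, control high-fat and cKO high-fat groups had 1 library each, and the cKO normal-diet group had 1 library in each of batches 1 and 2. Library titles name a batch only for the cKO normal-diet group, and the other libraries are counted here as batch 1.

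The libraries held between 40 and 7998 cells. The library of 40 cells, cKO normal diet of batch 1, stood apart: it had 31 beta, 7 immune and 2 acinar cells and not a single alpha, delta or PP cell. Cell identifiers carried 4 suffixes. Of these, 3 belonged to 1 library each, and 1 was common to both cKO normal-diet libraries, which shared 0 barcodes with each other. How their cells were told apart is not given in the sources used here. They are treated as the separate libraries that the labels name. Across libraries 140 barcodes occurred more than once. They included 28 delta cells, and 1 barcode was a delta cell in more than 1 library. The intervals below describe counting error alone and leave out how mice or islet preparations vary. Which filters decided the cells kept is not given in the sources used here.

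Delta cells formed very different parts of the libraries (the plot of delta shares by library). They were 945 of 7998 cells in the control normal-diet library, or 11.8% (exact Clopper-Pearson 95% interval 11.1 to 12.5%). In the control high-fat library they were 434 of 6667 cells, or 6.51% (5.93 to 7.13%). In the cKO high-fat library they were 128 of 2483 cells, or 5.16% (4.32 to 6.10%). The batch 2 cKO normal-diet library had the highest share, with 298 of 1033 cells, or 28.8% (26.1 to 31.7%). Its batch 1 counterpart had 0 of 40, which allows up to 7.50%. The control normal-diet share would have given 4.73 delta cells in a library of that size, and the batch 2 share 11.5.

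**Figure D1:**
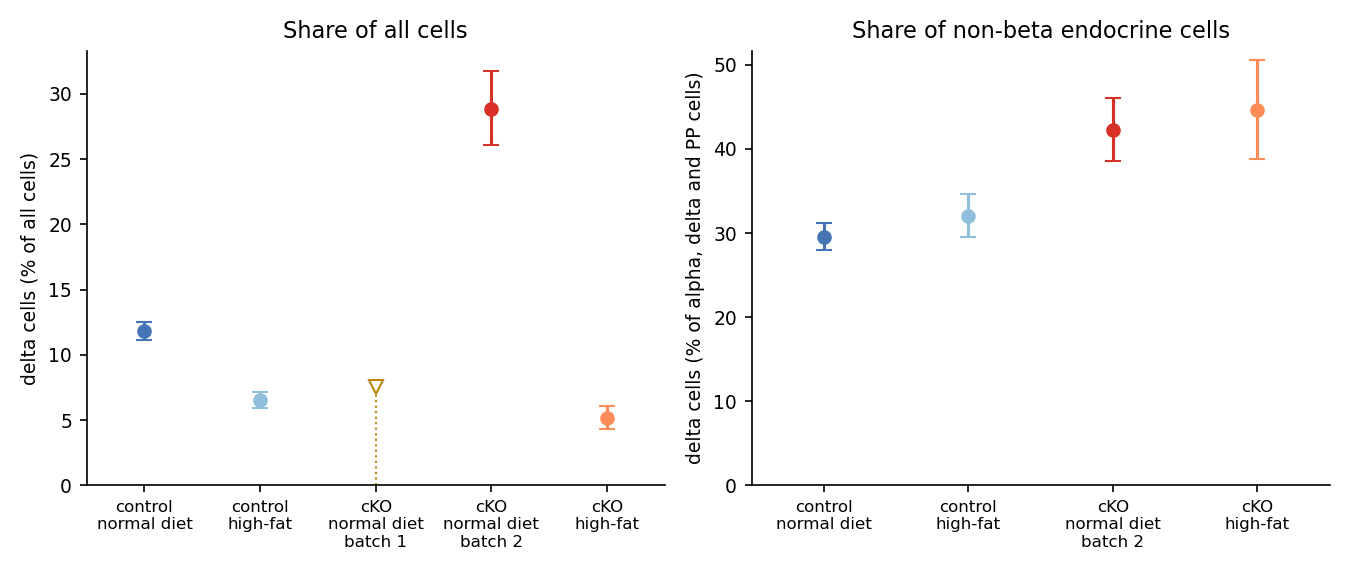
Delta cells as a percentage of all cells (left) and of alpha, delta and PP cells together (right) in each library. Points are shares, bars are exact 95% binomial intervals, and the open triangle marks the 7.50% that 0 of 40 cells allows. On the left the batch 2 cKO normal-diet library, at 28.8%, lies above all others, whereas on the right both cKO libraries (42.3% and 44.6%) lie above both control libraries (29.6% and 32.1%).

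In control mice the share of all cells was lower with high-fat feeding, with a log2 ratio of -0.86 (95% counting interval -1.02 to -0.70). For cKO mice the normal-diet group had a mean of 14.4% ± 20.4 (SD, n = 2), so its spread exceeded its mean. Against that mean the cKO high-fat share had a log2 ratio of -1.48 (-1.76 to -1.20). Intervals of values with this mean take the 0 of 40 as exact. With batch 1 set to the 7.50% it allows, added after the data were seen, the log2 ratio was -1.82, and against batch 2 alone -2.48 (-2.76 to -2.20). The 0 of the batch 1 library gives no ratio, and the cKO high-fat share of 5.16% lay below the 7.50% which that library allows. With 3 cells as the limit for a count of 0, the gap between both cKO normal-diet libraries was at least 1.94 on the log2 scale, leaving aside the counting error of batch 2. The exact upper limit of 8.81% for batch 1 would make this lower limit smaller. The diet difference in control mice, and the one in cKO mice by the mean, were below 1.94. As the gap has no upper limit, the difference against batch 2 alone could not be ranked against it.

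Genotypes did not differ in a single direction by this measure. On the high-fat diet, where both libraries are counted as batch 1, the cKO share was slightly lower, with a log2 ratio of -0.34 (-0.61 to -0.06). With only the cells whose neighbours in the embedding were mostly of their own class, the log2 ratio was -0.14 (-0.42 to 0.14), so the lower share was then within counting error. That restriction removed 361 of 2093 beta and 3 of 128 delta cells of the cKO library. From the control library it removed 211 of 4841 beta and 16 of 434 delta cells, so the denominators changed unequally. On normal diet the cKO mean was above the control by 0.29 (0.12 to 0.45), or by 0.62 with batch 1 at its limit, the batch 2 library alone was above it by 1.29 (1.12 to 1.45), and the batch 1 library lay below it, since the 7.50% it allows is under 11.8%. Both genotype differences by the group values were below the lower limit of the gap, 1.94. The diet ratio in cKO over that in control mice was -0.62 (-0.95 to -0.30) on the log2 scale, -0.96 with batch 1 at its limit and -1.62 (-1.95 to -1.30) with batch 2 alone.

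These shares also move with the number of beta cells, because all shares within a library add up to the whole. Alpha, delta and PP cells together were 39.9% of the control normal-diet library, 20.3% of the control high-fat library, 68.2% of the batch 2 cKO normal-diet library and 11.6% of the cKO high-fat library. Delta cells were therefore also counted among these non-beta endocrine cells alone. The batch 1 cKO normal-diet library has no such cell and drops out, so every cKO value on normal diet in the following comparisons comes from the single library of batch 2. On normal diet, genotype and batch cannot be told apart.

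Among non-beta endocrine cells, delta cells were more frequent in both cKO libraries than in both control libraries. They were 945 of 3194 (29.6%, 28.0 to 31.2%) in the control normal-diet library and 434 of 1354 (32.1%, 29.6 to 34.6%) in the control high-fat library. The batch 2 cKO normal-diet library had 298 of 705 (42.3%, 38.6 to 46.0%), and the cKO high-fat library had 128 of 287 (44.6%, 38.8 to 50.6%). The intervals overlapped between diets within each genotype and did not overlap between genotypes. On the high-fat diet, with both libraries counted as batch 1, the cKO share was 1.39-fold that of the control (1.20 to 1.62), a log2 ratio of 0.48 (0.26 to 0.69). On normal diet the ratio was 1.43-fold (1.29 to 1.58), or 0.51 on the log2 scale (0.37 to 0.66).

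Diet gave smaller differences in the same share. The log2 ratio of high-fat over normal diet was 0.12 (-0.02 to 0.25) in control mice and 0.08 (-0.15 to 0.30) in cKO mice, both within counting error. With only cells of a mostly own-class neighbourhood the control value was 0.19 (0.05 to 0.33), past counting error. That restriction removed unequal parts, 164 of 945 delta cells on normal diet and 16 of 434 on high-fat diet. The control shares were then 29.5% on normal and 33.7% on high-fat diet. The diet ratio in cKO over that in control mice was -0.04 (-0.30 to 0.22). The 5.60-fold range of delta shares over the 4 libraries with delta cells, taken over all cells, thus narrowed to 1.51-fold among non-beta endocrine cells. No second library of any group had these cells, so the spread between replicate preparations is unknown for this measure and for the ratios to alpha and PP cells.

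The number of delta cells per alpha cell was higher in both cKO libraries than in both controls (the plot of delta ratios by library). There were 0.491 delta cells per alpha cell (0.454 to 0.531) in the control normal-diet library and 0.561 (0.499 to 0.631) in the control high-fat library. The batch 2 cKO normal-diet library had 0.925 (0.791 to 1.08), and the cKO high-fat library had 1.02 (0.794 to 1.30), with 128 delta and 126 alpha cells. Delta and alpha cells were thus about equally numerous in both cKO libraries, and alpha cells outnumbered delta cells in both controls. On the high-fat diet the ratio was 1.81-fold higher in the cKO library (1.38 to 2.38), a log2 ratio of 0.86 (0.46 to 1.25). On normal diet it was 1.89-fold higher (1.58 to 2.25), or 0.91 (0.66 to 1.17).

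The log2 ratio of high-fat over normal diet for delta cells per alpha cell was 0.19 (-0.01 to 0.40) in control mice and 0.13 (-0.29 to 0.56) in cKO mice. Restricting the count to cells with mostly own-class neighbours left the genotype values at 0.88 (0.48 to 1.28) on the high-fat diet and 1.04 (0.78 to 1.31) on normal diet. With that restriction the diet value in control mice was 0.31 (0.09 to 0.52), past counting error. It removed 164 of 945 delta and 237 of 1925 alpha cells of the control normal-diet library. From the control high-fat library it removed 16 of 434 delta and 42 of 773 alpha cells.

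The alpha cells fell into clusters 2 and 8, and the genotype difference was not the same against each. Per cluster 2 alpha cell there were 0.736 delta cells in the control normal-diet, 0.824 in the control high-fat, 2.21 in the batch 2 cKO normal-diet and 1.47 in the cKO high-fat library. Both cKO values lay above both controls, with log2 ratios of 1.58 (1.27 to 1.90) on normal and 0.84 (0.40 to 1.27) on high-fat diet. Per cluster 8 alpha cell the same libraries had 1.47, 1.76, 1.59 and 3.28 delta cells. The cKO high-fat library was again higher than its control, by 0.90 (0.33 to 1.46), whereas on normal diet the log2 ratio was 0.11 (-0.19 to 0.41), within counting error. The diet value in cKO mice also took opposite directions, with log2 ratios of -0.59 (-1.08 to -0.09) per cluster 2 and 1.04 (0.46 to 1.62) per cluster 8 alpha cell. Cluster 2 was 41.9% of alpha cells in the batch 2 library and between 66.7% and 69.0% in the other libraries with alpha cells.

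**Figure D2:**
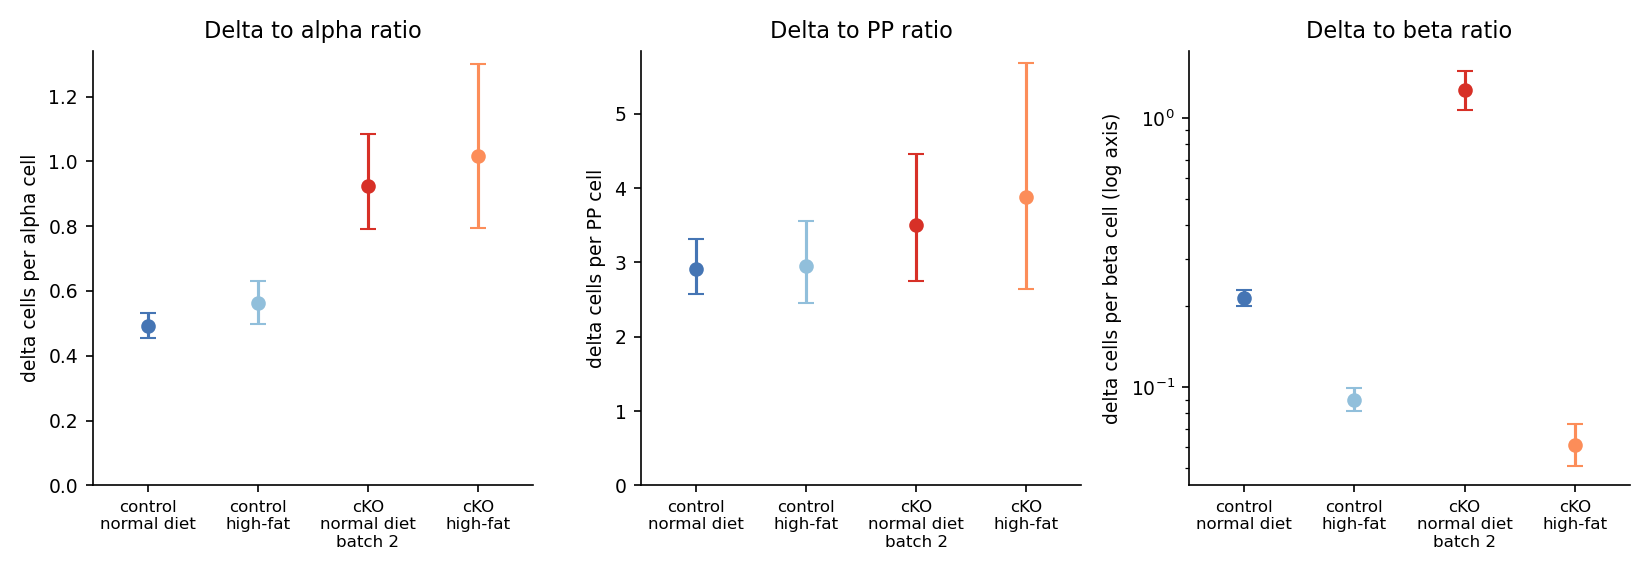
Delta cells per alpha, per PP and per beta cell in the 4 libraries that hold delta cells, with 95% counting intervals; the beta panel has a log axis. The alpha ratio is 0.491 and 0.561 in the controls and 0.925 and 1.02 in the cKO libraries, the PP ratio spans 2.92 to 3.88 with overlapping intervals, and the beta ratio spans 0.0612 to 1.26.

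Against PP cells, delta cells differed little. There were 2.92 delta cells per PP cell (2.57 to 3.31) in the control normal-diet library and 2.95 (2.45 to 3.56) in the control high-fat library. The batch 2 cKO normal-diet library had 3.51 (2.76 to 4.46), and the cKO high-fat library, with 33 PP cells, had 3.88 (2.65 to 5.69). Both cKO values were above both controls, yet the log2 ratios of 0.27 (-0.13 to 0.66) on normal and 0.39 (-0.22 to 1.01) on high-fat diet were within counting error. These intervals still allow a ratio of up to 1.58-fold and 2.01-fold.

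PP cells themselves were 10.1% and 10.9% of non-beta endocrine cells in controls on normal and high-fat diet, and 12.1% and 11.5% in cKO mice on normal (batch 2) and high-fat diet. Alpha cells were 60.3% and 57.1% in the controls, and 45.7% and 43.9% in the cKO libraries. The number of alpha cells per PP cell, a ratio without delta cells, was 5.94 and 5.26 in the controls and 3.79 and 3.82 in the cKO libraries. Its log2 ratio between genotypes was -0.65 (-1.03 to -0.26) on normal and -0.46 (-1.07 to 0.15) on high-fat diet. More delta cells and fewer alpha cells per islet cannot be told apart from these proportions.

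Against beta cells, the cells in which RIP-Cre is meant to act, delta cells had their widest range. There were 0.214 delta cells per beta cell (0.200 to 0.230) in the control normal-diet library and 0.0897 (0.0813 to 0.0989) in the control high-fat library. The cKO high-fat library had 0.0612 (0.0512 to 0.0731). In the batch 2 cKO normal-diet library delta cells outnumbered beta cells, 298 to 236, a ratio of 1.26 (1.06 to 1.50). The batch 1 library had 0 delta cells for 31 beta cells, which allows up to 0.0968.

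High-fat feeding went with fewer delta cells per beta cell in control mice, with a log2 ratio of -1.26 (-1.43 to -1.08). In cKO mice the value against batch 2 was -4.37 (-4.72 to -4.01), and the cKO high-fat ratio lay within what the batch 1 library allows. On the high-fat diet the cKO library was below the control by a log2 ratio of -0.55 (-0.85 to -0.26). Without beta cluster 9, which held 484 of the 2093 beta cells counted in cKO mice on this diet, this became -0.19 (-0.49 to 0.11). The lower delta to beta ratio on high-fat diet thus depended on counting that cluster as beta cells. On normal diet the batch 2 library was 5.89-fold above the control (4.89 to 7.08). The batch 1 library lay below the control, since the 0.0968 it allows is under 0.214. The genotype direction on normal diet thus depended on the cKO library used.

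**Figure D3:**
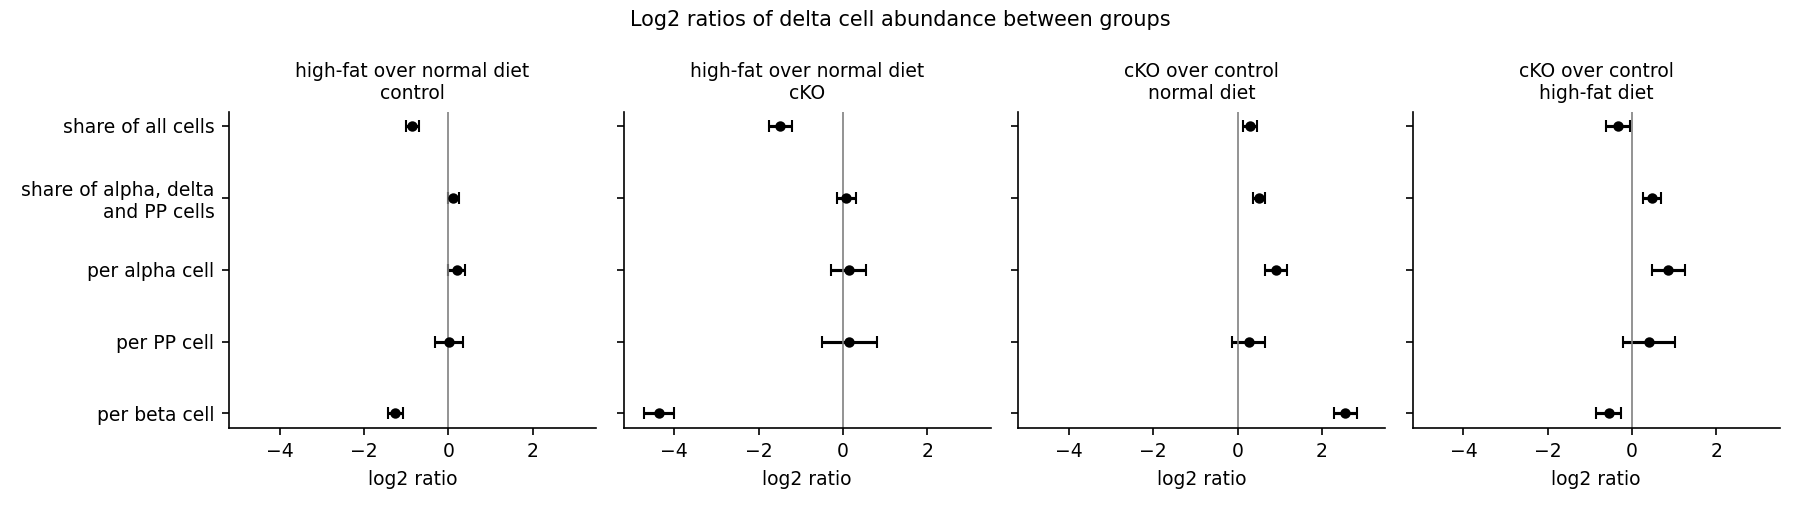
Log2 ratios of delta cell abundance for the diet comparison within each genotype and the genotype comparison within each diet, with 95% counting intervals and a line at 0. For the share of all cells the cKO normal-diet value is the mean of both libraries, and for the other measures it is the batch 2 library alone. The share of non-beta endocrine cells and the number per alpha cell lie right of 0 for genotype on both diets (0.48 to 0.91) and cover 0 for diet, whereas the number per beta cell runs from -4.37 to 2.56.

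Pooling libraries by genotype or by diet gave 10 comparisons over the 5 measures. For the share of all cells, 3 cKO libraries were set against 2 control libraries (means of 11.3% and 9.16%), and the two-sided exact permutation test gave p = 1. For diet (5.83% on high-fat and 13.6% on normal diet) the exact permutation p was 0.6, and the smallest p that these 10 splits allow is 0.1. These means give each library the same weight, whatever its cell number. Most cKO libraries were on normal diet and most normal-diet libraries were cKO, so the pooled means mix genotype with diet. Without the 40-cell library the genotype difference was 7.84 percentage points in place of 2.17 and the diet difference -14.5 in place of -7.72, with both high-fat libraries then below both normal-diet libraries. For the other measures 2 libraries were set against 2, where the smallest exact permutation p is 0.333. The 40-cell library was left out of these because it has 0 delta cells. Among the remaining libraries, delta cells per alpha, per PP and among non-beta endocrine cells separated the genotypes completely, and delta cells per beta cell separated the diets. Each had an exact permutation p of 0.333 and a Benjamini-Hochberg adjusted p of 0.833. For delta cells per beta cell, the 0 to 0.0968 that the omitted normal-diet library allows spans both high-fat values, 0.0612 and 0.0897. That separation therefore holds only for libraries with delta cells. The mean difference between genotypes was 0.89 on the log2 scale for delta cells per alpha cell and 0.50 for the share of non-beta endocrine cells. The exact permutation test therefore cannot bring any of these differences below a threshold of 0.05.

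In the deposited UMAP embedding, a 2-dimensional map in which cells of similar expression tend to lie close together, delta cells formed a band among the endocrine clusters (the maps of delta cells by library). The embedding and the clusters derive from the same expression data, so what follows is a description. Of the 30 nearest neighbours of a delta cell, 82.8% on average were delta cells, 12.2% beta, 3.06% PP and 1.89% alpha cells. Immune, endothelial and neuron cells were at 0% of these neighbours. By the number of neighbours the nearest clusters were beta cluster 1 (6.13%), PP cluster 11 (3.06%) and beta cluster 9 (2.81%). By the distance between median positions the order was another. Acinar cluster 14 (2.74 units) and alpha cluster 8 (3.31) came first, then beta cluster 9 (3.54) and PP cluster 11 (4.05), and beta cluster 1 was at 5.79. Relative to cluster size the order was PP cluster 11, at 4.95 times its part of all non-delta cells, then beta cluster 9 at 4.05 times and alpha cluster 8 at 1.57 times. Alpha cluster 2 was at 0.0234 times. These values pool all delta cells, 52.4% of which came from the control normal-diet library. There PP cluster 11 gave 4.85% and beta cluster 9 gave 4.72% of the neighbours. In the other libraries with delta cells PP cluster 11 gave 0.443% to 1.31% and beta cluster 9 gave 0.492% to 0.996%. Beta cluster 1 came first in each library, but in the cKO high-fat library beta cluster 6 (1.82%) and alpha cluster 8 (1.74%) came next.

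**Figure D4:**
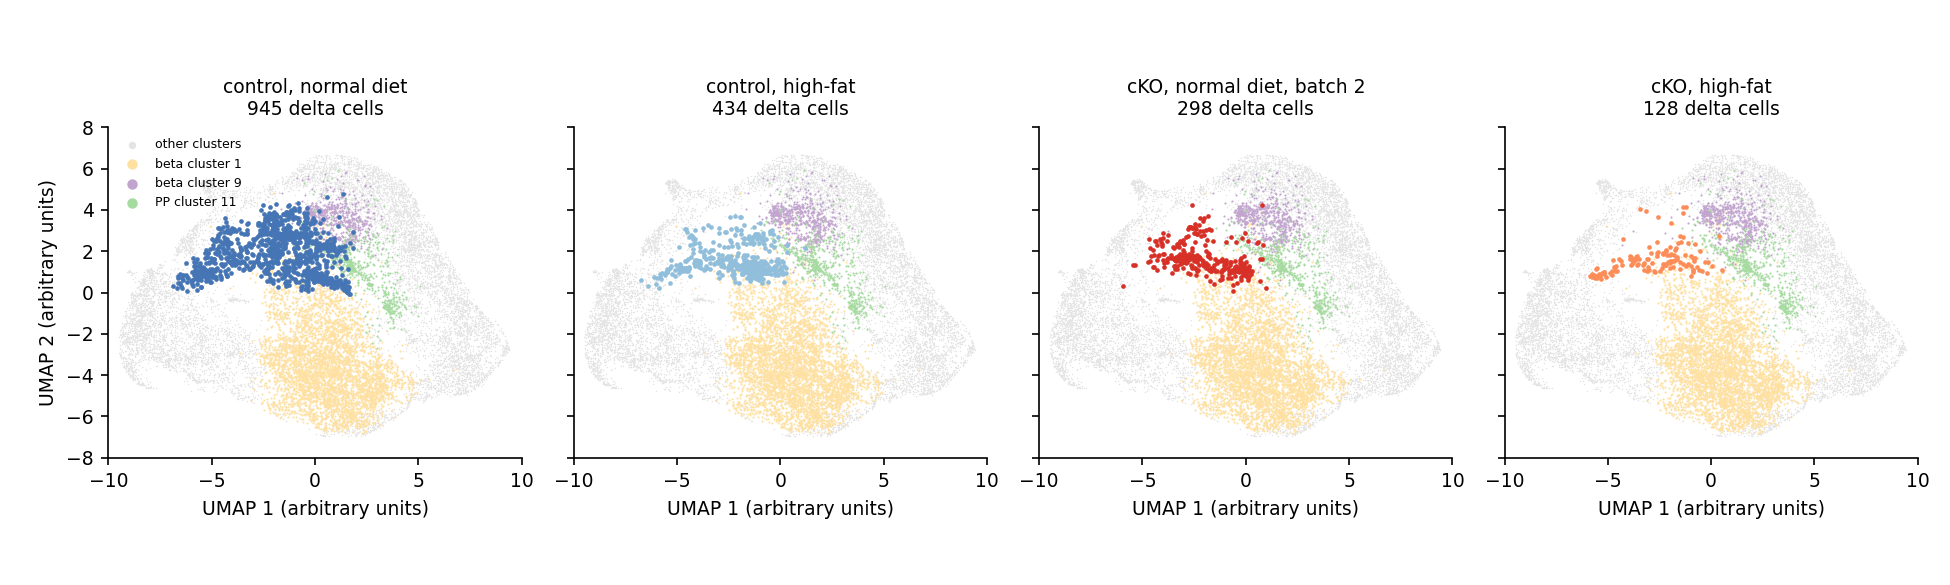
UMAP positions (arbitrary units) of the delta cells of each library, drawn over all other cells in grey and the 3 clusters with most neighbours of delta cells in pale colours. The 945 delta cells of the control normal-diet library reach into beta cluster 9 and PP cluster 11, and those of the other 3 libraries lie mostly in a narrower band.

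Most delta cells, 1611 of 1805, had over 50% delta cells among their 30 neighbours, and 194 (10.7%, 9.36 to 12.3%) did not. These 194 were concentrated in the control normal-diet library, with 164 of 945 delta cells (17.4%, 14.99 to 19.9%). The control high-fat library had 16 of 434 (3.69%, 2.12 to 5.92%), the batch 2 cKO normal-diet library 11 of 298 (3.69%, 1.86 to 6.51%), and the cKO high-fat library 3 of 128 (2.34%, 0.486 to 6.70%). The control normal-diet share lay above all the others, whose intervals overlapped. When neighbours were taken from the cell's own library only, an alternative added after the data were seen, the control normal-diet share was 8.78% (7.06 to 10.8%). The other libraries then had 5.76%, 4.70% and 6.25%, so the distance to them depended on which cells could be neighbours.

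The largest non-delta group around these 194 cells was PP cluster 11 for 52, beta cluster 9 for 47, alpha cluster 8 for 31, beta cluster 1 for 27 and beta cluster 6 for 23. Of the 47 around which beta cluster 9 was largest, 44 came from the control normal-diet library, as did 45 of the 52 beside PP cells. The same library had 71 cells of beta cluster 9 and 324 PP cells of its own. Alpha cells without an own-class majority were also most frequent there, at 12.3% (10.9 to 13.9%) against 5.43% to 6.52% in the other 3 libraries, whereas for beta cells it had the lowest value, 3.88%, against 36.0% in the batch 2 cKO normal-diet library. For PP cells the share was between 34.1% and 45.5% in every library with PP cells. The part of doublets and of RNA depth in these positions was not tested.

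Delta cells of the control normal-diet library were also the most widely spread. Their median distance to the median position of all delta cells was 2.09 units (quartiles 1.42 and 2.81). It was 1.24 (0.751 and 2.05) in the control high-fat library, 1.39 (0.903 and 1.83) for batch 2 of the cKO normal-diet group and 1.34 (0.741 and 2.59) in the cKO high-fat library. Over all delta cells it was 1.69, where the same measure was 1.68 for alpha cluster 2, 2.55 for alpha cluster 8, 1.40 for PP cluster 11 and 1.08 for beta cluster 9.

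The main axis of the delta band ran almost along UMAP 1 (loading 1.00) and held 80.9% of its variance. With the band cut into terciles of equal cell number along this axis, the control normal-diet library had 40.2% (37.1 to 43.4%) of its delta cells in the right tercile, toward the PP cells. The control high-fat library had 27.0% there, the batch 2 cKO normal-diet library 28.5% and the cKO high-fat library 15.6% (9.81 to 23.1%). In the left tercile the cKO high-fat library had the highest share, 46.9% (38.0 to 55.9%), and the control normal-diet library the lowest, 30.3% (27.3 to 33.3%), with 32.3% in the control high-fat and 38.6% in the batch 2 library. Along the second axis, added after the data were seen, the upper tercile held 44.6% of the control normal-diet delta cells and between 17.2% and 23.5% of those of the other libraries.

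Delta cells of different libraries were partly mixed. Among delta cells only, the 30 nearest neighbours came from the cell's own library 1.19 times as often as the numbers of delta cells give in the control normal-diet library, 1.54 times in the control high-fat, 1.74 times in the batch 2 cKO normal-diet and 1.69 times in the cKO high-fat library. With each library weighted by the inverse of its number of delta cells, these ratios were 1.31, 1.35, 1.51 and 1.42. Every library with delta cells thus had more neighbours of its own than even mixing gives.

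Libraries also differed in which others they mixed with. By the weighted ratio, delta cells of the control high-fat library met control normal-diet neighbours 0.607 times, batch 2 cKO normal-diet neighbours 0.979 times and cKO high-fat neighbours 1.06 times as often as even mixing gives. Delta cells of the cKO high-fat library met control high-fat neighbours 1.01 times and control normal-diet neighbours 0.671 times as often. For the batch 2 library these values were 0.994 and 0.610. By this ratio the control normal-diet library was the least frequent neighbour of all 3 others. Delta cells of the control high-fat library, of the same genotype, met it less often, relative to even mixing, than either cKO library. These weighted ratios are not distances, and they also depend on how widely the delta cells of each library spread. Values of this kind depend on any batch integration, whose use is not given in the sources used here.

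**Figure D5:**
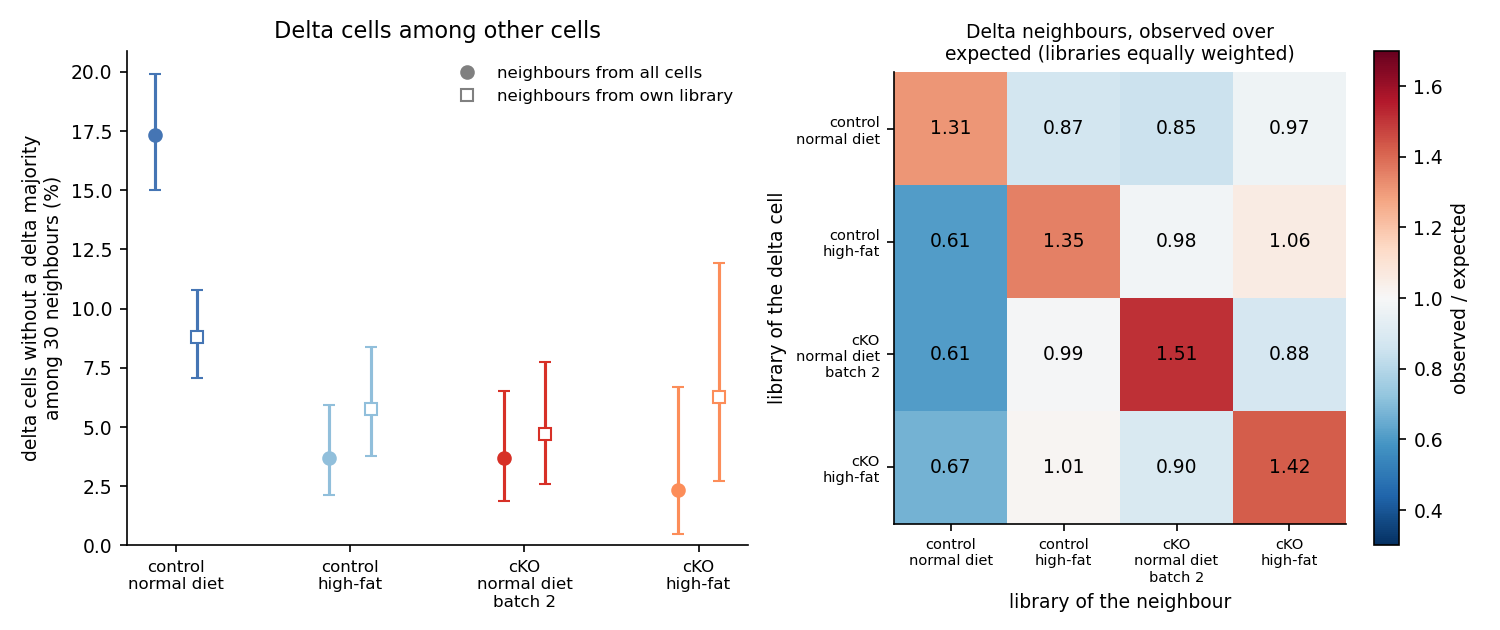
Left, percentage of each library's delta cells without a delta majority among 30 neighbours, taken from all cells (filled circles) or from the own library (open squares), with exact 95% intervals. Right, observed over expected neighbours by library among delta cells, with libraries weighted equally. The control normal-diet library has 17.4% by the first measure against 2.34% to 3.69% in the others, and the diagonal on the right runs from 1.31 to 1.51.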

How the data were processed

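Single-cell RNA was measured in 5 libraries of mouse islets. Cell Ranger 7.1.0 and the build GRCm39 are named per the submitters' processing notes. How cells were filtered, integrated, clustered and named, and whether doublets were removed, is not given in the sources used here. The tables hold a library, a class, a cluster number and UMAP scores deposited by the authors for each cell. They were joined by cell identifier, and 0 cells went against their library's genotype or diet label. The number in the cKO normal-diet library names was read as the batch. Members, measures and lists were chosen with earlier results of these data known. No gene was named with a value.

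Shares have exact 95% intervals, and a count of 0 is limited by 3 cells. Ratios have delta-method intervals on the log scale. Doublets were not called. No p-value was made from cells. Nearest neighbours (30, excluding the cell itself) used Euclidean distance, for libraries with at least 20 delta cells. Intervals, neighbour ratios and permutation tests were tested on simulated data. Python 3.11.15, numpy 2.4.6, scipy 1.17.1 and pandas 2.3.3 were used. Read depth is unknown, so cell numbers set the precision. Alternatives were other denominators, odds ratios, summed cells, alpha clusters, beta cells without cluster 9, own-class majorities, 15 and 60 neighbours, library weights and omitted libraries.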

Additional observations from a re-analysis of the deposited data

Results flagged for a closer look

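The median distance of delta cells to their common centre in the embedding differed between genotypes in opposite directions on the 2 diets. On normal diet it was 2.09 units in the control and 1.39 in the batch 2 cKO library, and on the high-fat diet it was 1.24 in the control and 1.34 in the cKO library. No test across libraries was made of this difference, because each of these values comes from 1 library, and the high-fat values lie well within each other's quartiles.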

How the results depend on the processing

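Of 129 recomputed values, 103 stayed within the interval or tolerance of the main value or kept the direction and side of the test, and 26 moved. The values that stayed include 12 recomputed without the 40-cell library whose measures already leave it out, so they could not move. The same holds for the permutation differences other than those for the share of all cells. None of the values whose main interval excluded 0 changed sign (0), and 2 whose main interval included 0 did, with the alternative interval excluding 0: diet in cKO per cluster 2 alpha cell and the ratio of ratios per cluster 8 alpha cell. Diet in cKO, genotype on normal diet and their ratio of ratios, for the share of all cells, moved with the treatment of the 40-cell library. Without it they were -2.48, 1.29 and -1.62 (log2). With both libraries' cells summed they were -2.43, 1.23 and -1.57, as odds ratios -1.90, 0.60 and -0.95, and with batch 1 at the limit of a count of 0 -1.82, 0.62 and -0.96. Leaving out the batch 2 library gave no value. Against alpha cluster 2 alone, diet in cKO, genotype on normal diet and the ratio of ratios for delta per alpha cell were -0.59, 1.58 and -0.75, and against cluster 8 alone 1.04, 0.11 and 0.78. The diet values in cKO thus point opposite ways. Without beta cluster 9, genotype for delta per beta cell was 2.85 on normal and -0.19 on high-fat diet. With own-class majorities only, genotype on normal diet was 0.59 for the share of all cells, and for delta per beta cell diet in control was -1.03, genotype on normal diet 3.37 and the ratio of ratios -3.69. With neighbours from the own library, 8.78% of control normal-diet delta cells lacked a delta majority. With libraries weighted equally, 30.9% of batch 2 delta cells lay in the left tercile. In the exact permutation test without the 40-cell library, only the differences for the share of all cells could change. They kept their direction and became 7.84 (genotype) and -14.5 percentage points (diet). The smallest Benjamini-Hochberg adjusted p of this exact permutation test was 0.667. No paired analysis was possible because the groups compared share fewer than 2 replicate numbers. Depth in cells limits the PP ratios most, with 33 PP cells in the cKO high-fat library.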

Other observations

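Cells of other classes also lay among delta cells. Of 16416 cells not annotated as delta, 273 (1.66%) had over 50% delta cells among their 30 nearest neighbours. They were 214 beta, 44 PP, 13 alpha and 2 acinar cells. PP cells did so most often, with 44 of 589 (7.47%), against 1.84% of beta and 0.413% of alpha cells. The 13 alpha cells were all of cluster 8, and cluster 2 had 0 of 2033. Beta cluster 1 gave 134 of the 214 beta cells, beta cluster 6 gave 41 and beta cluster 9 gave 25.

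Among beta cluster 1 cells the share lying in a delta neighbourhood was 25 of 88 (28.4%, 19.3 to 39.0%) in the cKO normal-diet library of batch 2. The value was 1.19% in the control normal-diet, 4.37% in the control high-fat and 4.50% (5 of 111 cells) in the cKO high-fat library. Beta cluster 9 showed another order, with 10 of 71 cells (14.1%) in the control normal-diet and 10 of 58 (17.2%) in the control high-fat library. The cKO libraries with delta cells had 2 of 46 (4.35%) on normal diet and 3 of 484 (0.620%, 0.128 to 1.80%) on high-fat diet. These shares were computed after the data were seen.

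Delta cells per immune cell, a ratio without other endocrine cells, were 4.75 and 4.03 in the control and batch 2 cKO normal-diet libraries, and 1.54 and 1.91 in the control and cKO high-fat libraries. The log2 ratio of high-fat over normal diet was -1.63 (-1.93 to -1.32) in control mice and -1.08 (-1.64 to -0.51) in cKO mice. Fewer delta cells and more immune cells cannot be told apart from these ratios. The 40-cell library had 0 delta cells for 7 immune cells, which allows up to 0.429 per immune cell. That limit lies below the cKO high-fat value of 1.91, so the diet direction in cKO mice depended on the normal-diet library used.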
